A study of Mus musculus with 9 samples.

Results

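Ribosomal protein paralogs are gene copies that encode close relatives of the standard proteins of the cytosolic ribosome. The 7 examined were Rpl10l, Rpl39l, Rpl36al, Rpl3l, Rps27l, Rpl22l1 and Rpl7l1, each set beside the standard gene it resembles, called its parent here (Rpl10, Rpl39, Rpl36a, Rpl3, Rps27, Rpl22 and Rpl7). They were picked by gene name. Names in the deposited table found 6 of the 7, in 7 of its 29661 rows, among 20221 gene names in all. The seventh, Rpl36al, was found through its RefSeq accession.

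The samples were testes of C57BL/6 mice at postnatal day 10, a juvenile age at which the first germ cells have entered meiosis. RNA-seq was made from 3 libraries labelled Lin28a knockout, whose titles carry the tag cKO, and from 3 labelled wild type. Which Cre line or promoter made the knockout, and whether each library is a separate animal, is not stated in the labels. Another 3 samples, of RNA recovered with the LIN28A protein, were not analysed here. LIN28A, a marker of undifferentiated spermatogonia in the testis, keeps let-7 microRNAs from maturing and also binds mRNAs directly. The series title concerns its effect on translation, and the comparison below asks whether the levels of these mRNAs differed between the groups.

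The deposited table holds 1 FPKM (fragments scaled to transcript length and sequencing depth) per group, in columns named case and control, with the authors' p-value and q-value for each row. There is thus no spread between libraries, and the depth is unknown. Case was read as knockout from its name alone. In the authors' deposited table Lin28a itself read 23.4 FPKM under case and 8.82 under control (q = 0.00191), which goes against that reading, so both are called by their labels, the case column and the control column, throughout. Where a pair of values is given, case comes first. Sertoli cell genes were abundant (Clu at 2028 and 2251 FPKM, Aard at 1032 and 1042), as the tissue label implies, and Prm1 and Prm2, the protamines of late spermatids, were listed at 0 in both columns.

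Most ribosomal proteins are made from a single active gene in mammals, while the genome carries many inactive processed copies of it. A few copies have stayed active and are used in particular tissues. When the X chromosome is silenced during meiosis in males, autosomal copies can supply proteins whose parent gene lies on the X. RPL10L and RPL39L are known from male germ cells, RPL3L from heart and skeletal muscle, and RPS27L as a p53-responsive protein, while RPL22L1 and RPL22 are known to influence each other's level. RPL7L1 is known for a role in assembly of the large subunit. Processed copies are near-identical to their parents and can take or lend reads, so every level of a ribosomal protein gene below is uncertain to that degree.

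None of the 7 paralogs passed the authors' test between the columns. Their p-values lay between 0.203 and 0.931 in the authors' deposited table, so 0 passed a q-value of 0.05 and 0 were under 0.05 unadjusted. Over all 13629 tested rows the matching shares were 0.0514% and 1.28%, so a count of 0 among 7 genes is near the background and is no result about them. Of the 6 paralogs found by name, 5 were lower in the case column, where 39.2% of the 12307 genes at a mean of at least 1 FPKM were lower. Rpl36al was lower too. Rpl7l1 was the exception, on the side of the 60.8% of genes that were higher. None of the 6 was past 1.5-fold on the log2(FPKM + 1) scale in either direction, against 0.707% of all genes lower and 0.423% higher. The median difference of the 6, case minus control, was -0.23 on that scale, and with Rpl36al it was -0.13. The median over all genes was 0.03.

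Levels, in contrast, spanned a wide range among the paralogs. In the case column the order was Rpl36al, Rps27l, Rpl39l, Rpl7l1, Rpl10l, Rpl22l1 and Rpl3l, from 241 down to 1.04 FPKM. In the control column Rps27l stood above Rpl36al and the rest kept their places, from 277 down to 1.75 FPKM. Whether neighbours in this order differ beyond their spread was not tested, since only pooled values were used. In mean level Rps27l exceeded 99.0% of the 12307 genes, Rpl39l 90.3%, Rpl7l1 83.1%, Rpl10l 81.5%, Rpl22l1 51.3% and Rpl3l 3.68%.

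**Figure D1:**
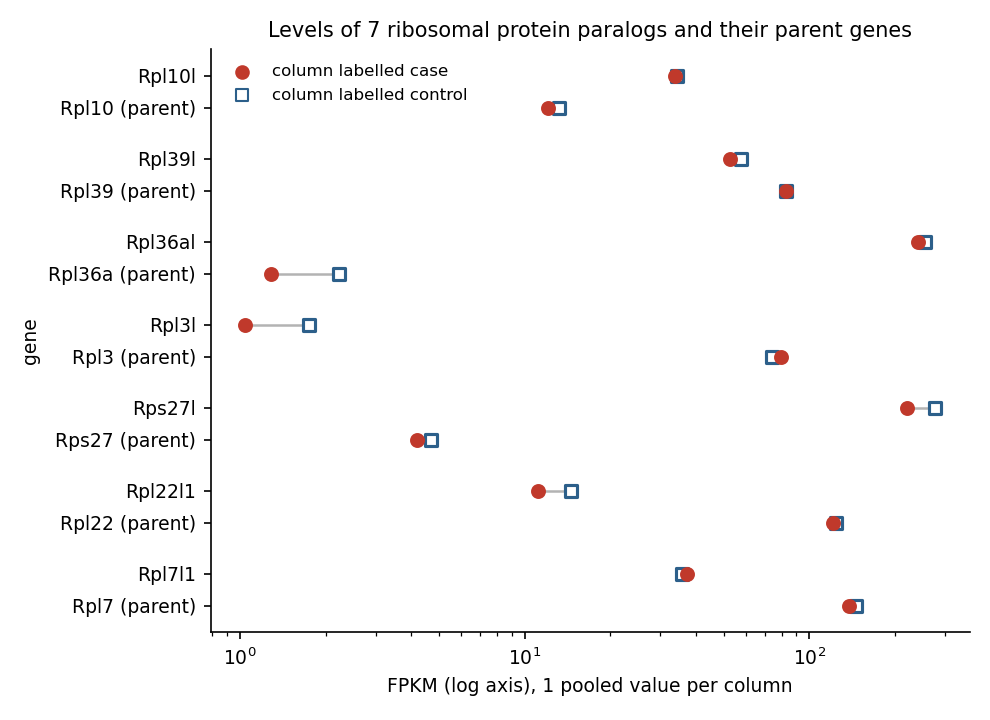
FPKM (log axis) of each paralog and, under it, its parent; filled circles are the case column and open squares the control column, 1 pooled value each, with rows assigned by RefSeq accession. The markers of most genes lie close together, less so those of Rpl3l (1.04 and 1.75) and Rpl36a (1.28 and 2.22). Genes differ from about 1 FPKM (Rpl3l) to 277 FPKM (Rps27l).

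The parents of 3 copies, Rpl10, Rpl39 and Rpl36a, lie on chromosome X, and their copies lie on chromosomes 12, 16 and 12. Rpl10l (NM_001162933; mm10 chromosome 12, 66283379 to 66284401) encodes a stand-in for RPL10, a large subunit protein that joins late in assembly, near the sites where tRNA binds. It read 33.7 FPKM under case and 34.4 under control in the authors' deposited table (p = 0.931). Rpl10 (NM_052835; chromosome X, 74270816 to 74273135) read 12.1 and 13.2 in the same deposited table of the authors (p = 0.772). The copy thus stood above its parent in both columns, by 2.80 times and 2.60 times, and held 73.7% and 72.2% of the summed FPKM of the pair. Both genes were under the median of the other large subunit genes at a mean of at least 1 FPKM, which was 39.4 and 42.9 FPKM. As said above, similar genes can take or lend reads, so the order and share of this pair are uncertain. They give no measure of how much of either protein the cells make. Of the 5 name-matched pairs in which both genes reached a mean of 1 FPKM, this was the single one with the copy above the parent.

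Rpl39l (NM_026594; chromosome 16, 10170228 to 10174911) encodes a relative of RPL39, a very small protein that lines the exit tunnel of the large subunit. The authors' deposited table gives it 52.7 FPKM under case and 57.7 under control (p = 0.664). Rpl39 (NM_026055; chromosome X, 37082520 to 37085184) read 82.6 and 82.7, the smallest difference of any parent, and the authors' deposited table gives p = 0.997. Rpl39l made up 38.9% of the pair in the case column and 41.1% in the control column.

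Rpl36al (NM_025589; chromosome 12, 69182734 to 69184067) carries the name RPL36A in the deposited table, the same name as the row of Rpl36a on chromosome X (NM_019865; 134585654 to 134588062). A search by name therefore joins a pair of genes that differ greatly in level. In the authors' deposited table the row on chromosome 12 read 241 FPKM under case and 255 under control (p = 0.745). The row on chromosome X read 1.28 and 2.22 there (p = 0.395 in the authors' deposited table). By accession, Rpl36al held 99.5% and 99.1% of the pair. That share rests on a parent listed at 1.28 and 2.22 FPKM, and gives no measure of how much of either protein the cells make. The median of the other large subunit genes at a mean of at least 1 FPKM was 39.4 and 42.9 FPKM. That median leaves out Rpl7a (0.872 and 1.03), Rpl12 (0.809 and 0.946) and Rpl28 (0.289 and 0.434), which were listed low as well. By name, the sum called Rpl36a was 242 and 258 FPKM, nearly all of it from the autosomal copy. RPL36AL and RPL36A are near-identical large subunit proteins that sit close to the exit site of tRNA.

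Start regions of these 3 pairs are printed because the parent lies on chromosome X and the copy on an autosome. They come from RefSeq (GRCm38.p6), run 5′ to 3′ on the gene's own strand, and hold 70 bases before the annotated start and 30 from it on. Capitals mark matches to CCGGAA or its complement TTCCGG, the core recognised by ETS factors, and to TATAA or its complement TTATA, the core of a TATA box.
Rpl10l (chr12:66284372-66284471, minus strand): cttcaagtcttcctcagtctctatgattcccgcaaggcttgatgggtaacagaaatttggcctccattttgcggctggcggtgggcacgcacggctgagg
Rpl10 (chrX:74270746-74270845, plus strand): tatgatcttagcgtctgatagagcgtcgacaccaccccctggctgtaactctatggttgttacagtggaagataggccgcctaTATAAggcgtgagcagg
Rpl39l (chr16:10170158-10170257, plus strand): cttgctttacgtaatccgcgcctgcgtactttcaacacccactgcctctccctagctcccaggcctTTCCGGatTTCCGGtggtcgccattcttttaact
Rpl39 (chrX:37085193-37085292, minus strand): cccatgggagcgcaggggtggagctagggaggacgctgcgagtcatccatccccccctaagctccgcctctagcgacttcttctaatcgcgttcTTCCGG
Rpl36al (chr12:69184038-69184137, minus strand): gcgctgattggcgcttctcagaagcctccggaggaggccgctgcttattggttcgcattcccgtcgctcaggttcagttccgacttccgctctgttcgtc
Rpl36a (chrX:134585584-134585683, plus strand): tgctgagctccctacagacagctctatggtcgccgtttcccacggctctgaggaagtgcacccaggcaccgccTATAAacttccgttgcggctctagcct

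Copy and parent differed in these matches. Within the printed stretch Rpl10 and Rpl36a each had a TATAA match and their copies had none. These matches begin 13 and 3 bases after the annotated start, not before it, where a TATA box lies. In the whole window of 300 bases (250 before the start and 50 from it on), Rpl39l had 4 CCGGAA matches and Rpl39 had 1. The annotated start of Rpl39 lay 38 bases from the end of its row in the deposited table, and the other 5 starts coincided with it.

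Over all 7 paralogs, 3 windows held CCGGAA in either orientation, namely those of Rpl39l, Rps27l and Rpl7l1. So did 3 of the 5 parents found, 27 of 53 windows of other ribosomal protein genes and 14.9% of all 32851 windows in the table. TATAA was present in 2 paralog windows, of Rpl39l and Rpl22l1, and in 4 of the 5 parents found. It was present in 11 of the 53 other ribosomal protein genes and in 24.9% of all windows. Many ribosomal protein genes start inside a stretch of C and T. An unbroken run of at least 10 such bases was found in the 100 bases around the start in 1 of 7 paralogs, Rpl22l1. The same held for 1 of the 5 parents found, 27 of the 53 other ribosomal protein genes and 18.6% of all windows. CpG pairs ranged from 2 in the window of Rpl3l to 42 in that of Rpl36al, beside medians of 23.0 in the other ribosomal protein genes and 7 in all windows. These are matches of letters, not sites shown to be bound. The windows of Rpl3 and Rpl7 were not analysed here.

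The other 4 parents are autosomal. Rps27l (NM_026467; chromosome 9, 66946118 to 66949509) encodes a relative of RPS27, a zinc-finger protein of the small subunit. The authors' deposited table gives it 220 FPKM under case and 277 under control, a ratio of 1.26 with p = 0.203. That is the smallest p among the paralogs, and it does not pass.

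The parent Rps27 cannot be read from its rows. In the authors' deposited table the row NM_027015, the coding transcript, read 0.00818 and 0.00708 FPKM with status NOTEST. A row of the same position (chromosome 3, 90212667 to 90213648) that carries no name, NR_033727, read 4.19 and 4.67. A further row named RPS27 at this same position, NM_001190258, is Rps27rt by accession and read 0.204 and 0.822 with status LOWDATA. Rps27l held 99.9% and 99.7% of the pair by name, and 98.1% and 98.3% by accession. These shares rest on a parent listed near 0, so they give no measure of how much of either protein the cells make. The median of the other small subunit genes at a mean of at least 1 FPKM was 83.8 and 81.2 FPKM. That median leaves out Rps12, which was also listed near 0, at 0 and 0.336 FPKM.

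Rpl22l1 (NM_026517; chromosome 3, 28805511 to 28807415) read 11.2 FPKM under case and 14.5 under control, for which the authors' deposited table gives p = 0.501. Its parent Rpl22 (NM_009079; chromosome 4, 152325878 to 152334071), a large subunit protein with RNA-binding roles of its own, read 121 and 124, where the authors' deposited table gives p = 0.882. The copy held 8.45% of the pair in the case column and 10.5% in the control column.

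Rpl7l1 (NM_025433; chromosome 17, 46773907 to 46782656) read 37.2 FPKM under case and 35.8 under control, the single paralog with the higher value under case, and the authors' deposited table gives p = 0.822. Rpl7 (NM_011291; chromosome 1, 16101296 to 16104433), an RNA-binding large subunit protein, read 138 and 146, with p = 0.737 by the authors' deposited table. Rpl7l1 held 21.3% and 19.7% of the pair.

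Rpl3l (NM_001163945; chromosome 17, 24727829 to 24736149) was the lowest paralog, with 1.04 FPKM under case and 1.75 under control, and the authors' deposited table gives p = 0.268. A further row of the gene, NM_025425, was listed at 0 in both columns. Its ratio of 1.68 between control and case was the widest among the paralogs, and with a pseudocount of 0.1 its difference was -0.70, past 1.5-fold, where it was -0.43 with a pseudocount of 1. Rpl3 (NM_013762; chromosome 15, 80077781 to 80083406), a protein near the peptidyl transferase centre, read 79.6 and 73.9 (the authors' deposited table gives p = 0.681), and Rpl3l held 1.29% and 2.32% of the pair. Striated muscle genes, the tissue in which RPL3L is known, were low as well. Their 9 members summed to 5.47 and 6.00 FPKM, with Mylpf at 1.90 and 1.68 and Tnni2 at 0.748 and 1.27, and their part in the level of Rpl3l was not tested.

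**Figure D2:**
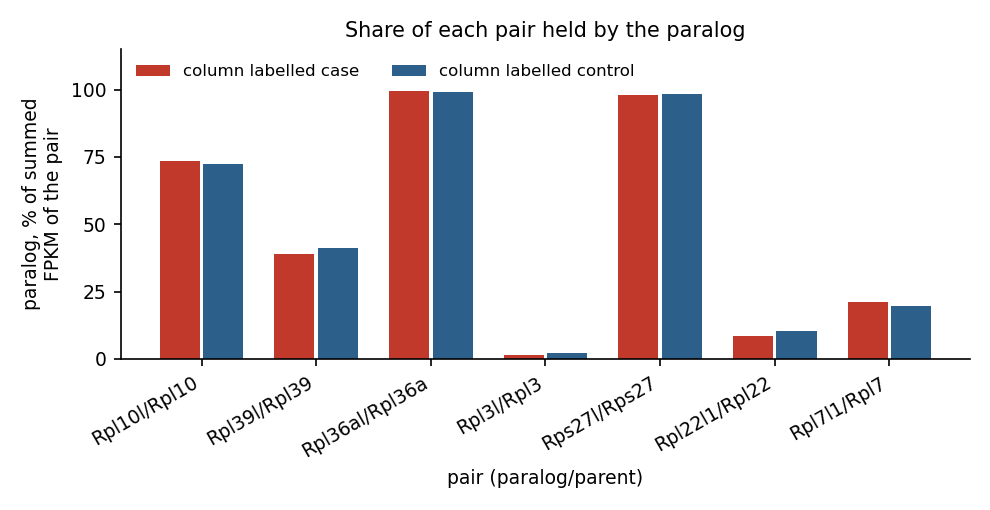
Share of the summed FPKM of each pair that comes from the paralog (percent, bars from 0), in the case column (red) and the control column (blue), with rows assigned by RefSeq accession and 1 pooled value per bar. The shares differ far more between pairs, from 1.29% for Rpl3l to 99.5% for Rpl36al, than between columns in percentage points. Relative to its small size the share of Rpl3l does differ, at 1.29% under case and 2.32% under control. Those of Rpl36al and Rps27l rest on parents listed at a low FPKM.

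Each paralog was also set against its own parent. The difference of the paralog minus that of the parent was -0.54 for Rpl3l, -0.32 for Rpl22l1, -0.13 for Rpl39l, 0.10 for Rpl10l and 0.14 for Rpl7l1 on the log2(FPKM + 1) scale. It was 0.41 for Rpl36al by accession. For Rps27l it was 0.26 by name and -0.21 by accession, so its sign turned with the rows taken as Rps27. The values of -0.54 and 0.41 rest on genes of low level, Rpl3l at 1.04 and 1.75 FPKM and Rpl36a at 1.28 and 2.22. By sign alone, 3 pairs were positive and 3 negative besides Rps27l, so the pairs had no common direction. Whether any of these values differs from 0 was not tested.

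Among the 72 other cytosolic ribosomal protein genes, 68 had a mean of at least 1 FPKM. Of these, 47 were lower and 21 higher in the case column, with a median difference of -0.05. Over all genes at that level 39.2% were lower, and the median was 0.03. None of the 65 with a tested main row passed a q-value of 0.05, where 0.0514% of all tested rows did. Beside 1.28% of all tested rows, 2 of the 65 were under 0.05 unadjusted, both lower. In the authors' deposited table these were Rpl29, with 145 FPKM under case and 230 under control (p = 0.00917), and Rps28, listed at 0 under case and at 15.0 under control (p = 0.00559). By size of the difference, Rpl37a was the third lowest with 19.2 and 24.5, where the authors' deposited table gives p = 0.423. The 3 highest differences were those of Rpl26 (27.8 and 17.5 FPKM, status FAIL), Rpl34 (21.2 and 15.3) and Rpl30 (33.1 and 24.1 over its rows). Small subunit genes had 20 of 30 lower with a median of -0.05, and large subunit genes 27 of 38 with the same median to that precision. Of the 6 parents that passed the level filter by name, 5 were lower, where 39.2% of all genes were. These include the sum called Rpl36a, nearly all of it from the copy Rpl36al. The row of Rpl36a itself, at 1.28 and 2.22 FPKM, was lower too.

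The names of other ribosomal protein rows can hide copies as well. By accession, 4 rows with a single ribosomal protein name are assigned to another gene: Rpl36al, Rps27rt, Rpl32l and Rpl31-ps12. The row assigned to Rps27rt has the same deposited position as the rows of Rps27, so its position does not set it apart from Rps27. In the authors' deposited table the Rpl32l row read 18.3 and 21.5 FPKM under the name RPL32. The Rpl31-ps12 row read 147 and 155 under the name RPL31.

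**Figure D3:**
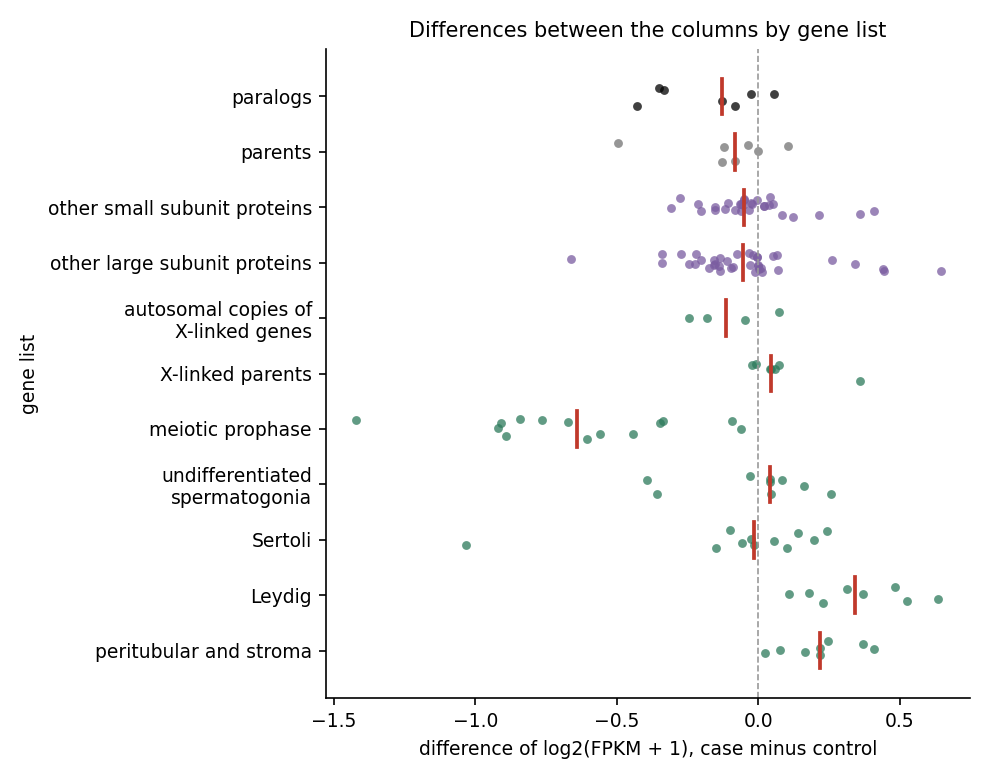
Difference of log2(FPKM + 1), case minus control, for each gene at a mean of at least 1 FPKM (points, spread vertically at random) by gene list, with the median of each list as a red line; paralogs and parents are assigned by RefSeq accession, and Rps28, listed at 0 in the case column, is left out. Paralogs lie mostly a little below 0, from -0.43 to 0.06, while meiotic prophase genes reach -1.42 and Leydig and stromal genes lie above 0.

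Marker lists of cell types gave the following values, with 0 members of any list passing a q-value of 0.05 in the authors' deposited table. All 14 meiotic prophase genes found by name were lower in the case column, where 39.2% of all genes were. Their median difference was -0.64 and their summed levels were 468 and 721 FPKM. The highest were Tex101, at 87.0 and 165 FPKM, and Sycp3, at 69.2 and 125. By the authors' deposited table, p was under 0.05 unadjusted in 6 of the 13 tested ones and in 1.28% of all tested rows. All 8 Leydig cell genes were higher, where 60.8% of all genes were, summing to 386 and 305 FPKM, with Hsd3b1 at 109 and 92.5 and Insl3 at 99.6 and 76.9, and 1 of the 8 was under 0.05 unadjusted. All 8 peritubular and stromal genes were higher too, at 1029 and 896 FPKM in sum, with Acta2 at 318 and 274 and Dcn at 168 and 165, and 0 of the 8 were under 0.05 unadjusted. Undifferentiated spermatogonia genes summed to 69.7 and 69.0 FPKM, with 6 of 9 higher and Zbtb16 at 16.8 and 14.9 and Etv5 at 10.7 and 10.4. Sertoli cell genes had 6 of 11 lower and 5 higher, and 1 of the 11, a lower one past 1.5-fold, was under 0.05 unadjusted. In whole testis, fewer cells of a type and less RNA per cell cannot be told apart. The part of these differences in the paralog values was not tested. Rpl10l, the copy best known from meiotic cells, had a difference of -0.03, and Rpl39l one of -0.13.

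Rpl10l, Rpl39l and Rpl36al were also set beside 7 other autosomal copies of X-linked genes known from the male germ line. At this age 4 of those copies were at a mean of at least 1 FPKM. Rbmxl2, an RNA-binding copy of Rbmx, was at 15.4 and 17.6 FPKM, above its parent at 7.93 and 5.96 by name. An unnamed row of Rbmx brings that parent to 22.6 and 18.9 FPKM by accession, above the copy, so this order turned with the rows taken. Cstf2t, a polyadenylation factor, was at 20.2 and 19.2 FPKM beside 25.5 and 24.5 for Cstf2. Utp14b, which acts in ribosome assembly, was at 6.11 and 6.35 beside 9.06 and 8.57 for Utp14a. Pdha2, of pyruvate dehydrogenase, was at 4.28 and 5.25 beside 22.3 and 21.6 for Pdha1.

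The remaining 3 copies were near 0: Cetn1 at 0.425 and 0.694 FPKM, G6pd2 at 0.102 and 0.0860, and the glycolytic enzyme gene Pgk2 at 0.0748 and 0.0583. Their parents Cetn2 (31.2 and 31.7), G6pdx (26.4 and 26.6) and Pgk1 (9.82 and 9.50 FPKM) were well above. The 3 ribosomal copies were thus each at a higher level than all 7 of these copies in both columns. Other ribosomal protein genes were high as well, with medians of 54.7 and 57.9 FPKM among those at a mean of at least 1 FPKM. Rpl10l and Rpl39l lay under these medians and Rpl36al above them. Genes of pachytene cells and spermatids were mostly low, with 3 of the 11 found at a mean of at least 1 FPKM, the highest by the mean of both columns being Hspa2 at 16.5 and 19.8 and Piwil1 at 1.73 and 1.45 FPKM.

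**Figure D4:**
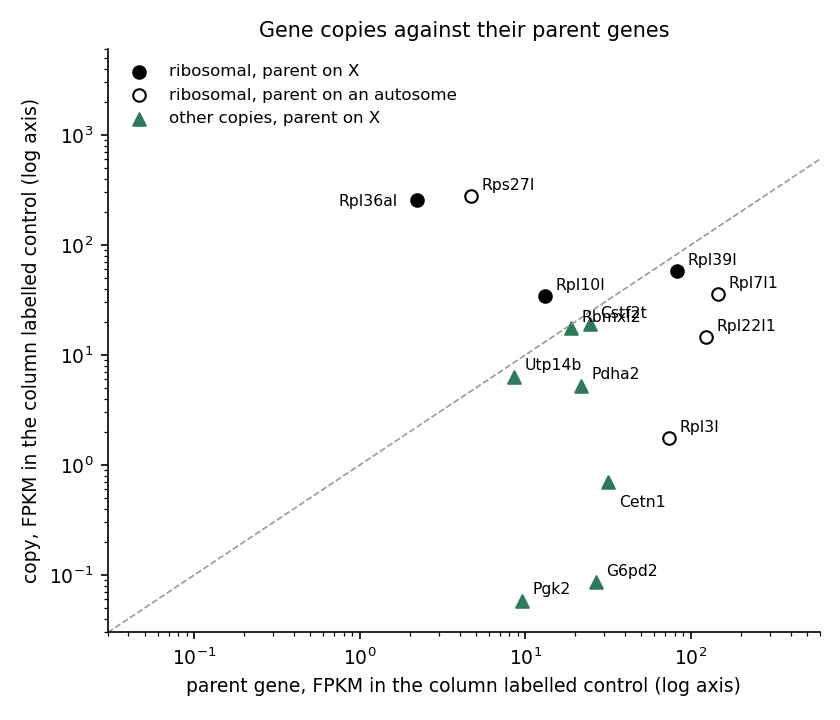
Level of each copy (vertical) against its parent (horizontal) in the control column, FPKM on log axes, for the ribosomal pairs (circles, filled where the parent is on chromosome X) and other autosomal copies of X-linked genes (triangles), with rows assigned by RefSeq accession; the dashed line marks equal levels. Rpl36al, Rps27l and Rpl10l lie above the line, and Pgk2 and G6pd2 lie under 0.1 FPKM.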

How the data were processed

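The deposited table has 1 row per RefSeq transcript. Per the submitters' processing notes, TopHat2 version 2.0.9 aligned reads to build mm10. What program computed FPKM is not stated there. For each group the authors deposited 1 FPKM, per the file headers, with a log2 ratio (control over case), a test statistic, a status, p-values and q-values. No test was run on these pooled values, so calls are the authors' own. FPKM was summed over the rows carrying a name, genes at a mean of at least 1 FPKM were kept (12307 genes), and log2(FPKM + 1) was compared as case minus control. The pseudocount makes differences of low genes smaller. Accessions were matched to RefSeq symbols for 98.0% of rows. Starts were read as counting from 0 and given 1-based. Python 3.11.15, pandas 2.3.3, numpy 2.4.6 and matplotlib 3.10.9 were used. The log2 difference without a pseudocount was checked on simulated data with no noise, and the adjustment of p-values on random ones. The matching of names and accessions was not checked in this way. Members and lists were chosen with earlier results of these data known. Genes were named by rule: all paralogs and parents, Lin28a, ribosomal protein genes with p under 0.05 or the 3 highest and lowest differences, each pair of X-linked gene and copy with a member at 1 FPKM or more, and the 2 highest genes per marker list. Prm1 and Prm2, Rps27rt, Rpl32l, Rpl31-ps12, Rps12, Rpl7a, Rpl12 and Rpl28 were named after their values were seen. Alternatives were the pseudocount, scaling, rows used, level filter, row status, symbol source and adjustment of p-values.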

Additional observations from a re-analysis of the deposited data

How the results depend on the processing

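No paralog was called by the authors' q-value, 0 also when adjusted over tested rows at a mean of 1 FPKM or more, over every row, or at a q under 0.10. With a pseudocount of 0.1 the number of paralogs past 1.5-fold lower in the case column was 1, Rpl3l at -0.70, against 0. The number of pairs with the paralog above its parent was 2 with no filter on low values and 3 with symbols by accession, against 1, because pairs enter that the filter or the names had left out. Of 108 values of single genes, pairs and the median over all genes under alternatives, 105 stayed within 0.1 on the log2 scale and 0 changed sign. Most of them had little room to move. The choices of rows, level filter, row status and symbol source left genes with 1 row as they were, and rescaling shifts a difference by at most 0.04. The count is thus no measure of how firm the values are. The 108 values leave out Rps27, Rpl36al and their pairs, which have no value under the reported settings. Among those, paralog minus parent for Rps27l was 0.26 with no filter and -0.21 by accession. Besides Rpl3l and its pair (-0.80) at a pseudocount of 0.1, Rpl36a moved to -0.50 by accession. Rescaling divided the columns' ratio by 1.03, or 0.04 on the log2 scale. Leaving out a library was not run, since the table gives no value of a single library. No paired analysis was possible because the table pools the libraries of a group into 1 value. With the depth unknown, no counting interval was computed.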
